A study of Mus musculus with 108 samples.

Results

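The genes described here are 9 that classical monocytes are known for, Ly6c1, Ly6c2, Plac8, Hp, F13a1, F10, Vcan, Fn1 and Chil3. They were taken by symbol from the table of all 49585 genes, each symbol matched 1 row, and the choice used no measured value. Classical monocytes are the short-lived monocytes that leave the bone marrow by way of the chemokine receptor Ccr2, circulate in blood and enter injured or tumour-bearing tissue, where part of them mature into macrophages. They are recognised in mice by Ly6C on their surface, and their transcripts include coagulation factors, matrix proteins and secreted lectins. Microglia, the resident macrophages of the brain, do not descend from these cells.

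The RNA came from FACS-purified cells of athymic nude mice on the Balb/C background, listed as CAnN.Cg-Foxn1nu/Crl, whose Foxn1 mutation leaves all groups without a normal thymus. From brains that carried metastases of lung origin, the labels name inflammatory monocytes, granulocytes, bone marrow-derived macrophages (BMDM) and microglia. Unirradiated mice had large tumours (5 libraries for each population) or small tumours (5 libraries of BMDM and of microglia, 4 of monocytes and of granulocytes). Irradiated mice had whole-brain radiotherapy of 5x2 Gy with collection on day 3 (4 libraries for each population), 1x10 Gy on day 3 (3 each), 5x2 Gy on day 5 (4 each) or 5x2 Gy on day 10 (3 each). Their tumour stage was not stratified, and the event from which days are counted is not given in the sources used here. Mice without a tumour gave 4 libraries of blood monocytes and 10 of microglia, in groups of 4, 3 and 3, of which the groups of 3 carry 5x2 in their titles while their radiotherapy field says none. The surface markers of the sort gates, the sex and age of the mice and whether each library came from its own animal are not stated, so p-values measure the spread between libraries. With bulk RNA of sorted cells, fewer cells of a type and less RNA per cell cannot be told apart.

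The 108 libraries held 985423 to 18642747 counts, with a median of 11362593. Levels are in CPM, a gene's counts set against the library's total and adjusted by TMM factors, and 12 libraries were of doubtful quality for a low total, an unusual number of genes detected or abundant genes at 0. These were 3 of the 4 libraries of blood monocytes, 2 of the 4 of tumour-free microglia whose titles carry no 5x2, and 7 of tumour-bearing brains. Microglia and granulocytes carried the markers of their labels, since the summed level of 5 microglia genes was 4428 to 9243 CPM in small-stage microglia against 897 to 1148 CPM in small-stage monocytes, and that of 6 granulocyte genes was 14934 to 35058 CPM in small-stage granulocytes against 388 to 572 CPM in small-stage monocytes. Ly6g, a surface marker of neutrophils, had a mean of 74.3 ± 26.4 CPM in granulocytes of the large stage, against 0.0186 ± 0.0415 CPM in monocytes.

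Ly6c1 and Ly6c2 are neighbouring genes on mouse chromosome 15 that encode the 2 proteins seen by antibodies to Ly6C, and their reads are hard to tell apart. Their coding sequences, 393 bases each, were 97.71% identical with 9 differences, and the first 120 bases hold 6 of these. They are shown here, from the GENCODE M21 transcripts on GRCm38, with the differing bases in capitals.
Ly6c1: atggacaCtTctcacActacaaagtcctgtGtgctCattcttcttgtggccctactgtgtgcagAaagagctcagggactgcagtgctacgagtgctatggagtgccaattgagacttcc
Ly6c2: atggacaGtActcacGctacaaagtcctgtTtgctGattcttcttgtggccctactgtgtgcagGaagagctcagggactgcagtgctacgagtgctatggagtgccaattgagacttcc
Of all windows of 50 bases in the transcript, 31.7% of those of Ly6c1 also occur in Ly6c2, and 32.6% of those of Ly6c2 in Ly6c1, so how the counting split such reads can move counts between them. Chil3 shares 18.46% of its windows with Chil4 and 29.4% with any other gene, F10 shares 1.92%, and Vcan, Hp, Plac8, Fn1 and F13a1 share 0. On GRCm38 the genes lie at chr15:75044018-75048830 (Ly6c1, ENSMUSG00000079018), chr15:75108158-75111970 (Ly6c2, ENSMUSG00000022584), chr5:100553725-100572245 (Plac8, ENSMUSG00000029322), chr8:109575128-109579172 (Hp, ENSMUSG00000031722), chr13:36867178-37050244 (F13a1, ENSMUSG00000039109), chr8:13037308-13056676 (F10, ENSMUSG00000031444), chr13:89655312-89742509 (Vcan, ENSMUSG00000021614), chr1:71585520-71653200 (Fn1, ENSMUSG00000026193) and chr3:106147554-106167564 (Chil3, ENSMUSG00000040809), F10 on the plus strand and the others on the minus strand. Genes on the opposite strand overlap Vcan, Fn1 and F13a1, and since the strand of counting is not given, their reads cannot be told apart from those of the partners.

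RefSeq's promoter table for GRCm38.p6 held 11 promoters for 7 of the 9 genes, each from 250 bases before to 50 after a start site. The letters GAGGAAGT, which hold the core bound by PU.1, the factor that myeloid cells depend on, occur on either strand in 4 of these 11 promoters, of Ly6c1, Ly6c2 and F13a1, and in 3.2% of all 32851 promoters of this length. For each of these genes 1 promoter is shown 5′ to 3′ on the minus strand with these letters in capitals. The promoters of Plac8, F10, Vcan and Chil3, which also had high levels in tumour monocytes, hold no match.
Ly6c1, chr15:75048614-75048913: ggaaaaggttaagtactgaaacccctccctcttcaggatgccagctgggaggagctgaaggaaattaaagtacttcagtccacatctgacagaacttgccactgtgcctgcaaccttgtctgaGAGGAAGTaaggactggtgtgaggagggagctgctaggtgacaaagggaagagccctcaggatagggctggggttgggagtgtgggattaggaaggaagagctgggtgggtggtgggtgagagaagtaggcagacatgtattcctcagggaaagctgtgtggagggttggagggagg
Ly6c2, chr15:75111922-75112221: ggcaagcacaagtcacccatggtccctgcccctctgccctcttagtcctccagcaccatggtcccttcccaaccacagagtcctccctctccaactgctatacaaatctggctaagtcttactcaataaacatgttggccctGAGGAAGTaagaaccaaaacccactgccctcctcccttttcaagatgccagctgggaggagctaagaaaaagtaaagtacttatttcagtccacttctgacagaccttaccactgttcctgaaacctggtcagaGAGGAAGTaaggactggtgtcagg
F13a1, chr13:37049164-37049463: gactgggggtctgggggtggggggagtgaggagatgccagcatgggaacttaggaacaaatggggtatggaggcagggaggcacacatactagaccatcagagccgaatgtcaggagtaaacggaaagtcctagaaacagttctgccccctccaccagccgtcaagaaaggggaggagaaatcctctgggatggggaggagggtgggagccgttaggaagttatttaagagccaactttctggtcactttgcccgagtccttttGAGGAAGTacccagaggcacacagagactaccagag
The letters TTGCNNAA of C/EBP factors occur in 1 of the 11, of Plac8, against 10.8% of all promoters, and TGANTCA of AP-1 in 0 of the 11, against 7.81%. No promoter of the 11 holds more than 1 kind of these motifs, so different motifs do not overlap. The 2 promoters of Ly6c2 overlap each other and hold the same pair of PU.1 matches, and the matches describe letters, not binding. Ly6c1 and Ly6c2 also share the bases around a match, so the 4 promoters are not independent and their share overstates the difference from all promoters.

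Across the 28 groups the 9 genes were highest in monocytes of the tumour with the exception of Hp, which was highest in granulocytes, and 6 of the 9 had medians under 3 CPM in microglia of tumour-bearing brains. In the 23 libraries of monocytes from tumour-bearing brains, the median was 301 CPM for Ly6c1 and 317 CPM for Ly6c2, and 1169 CPM for Plac8, a small cysteine-rich protein of myeloid cells. F13a1, the catalytic subunit of the clotting factor that cross-links fibrin, had 1952 CPM, and Fn1, the integrin ligand fibronectin, had 1813 CPM. Per kilobase of transcript, the level in these monocytes was highest for Plac8 (median 735 CPM per kb), followed by Hp (381) and F13a1 (289.7), and lowest for Vcan (17.3 CPM per kb). Hp, the haemoglobin-binding protein that neutrophils store in granules, had a median of 2197 CPM in 23 granulocyte libraries and 611 CPM in tumour monocytes. Microglia of tumour-bearing brains (24 libraries) had medians under 3 CPM for Ly6c1, Ly6c2, Vcan, Hp, F10 and Chil3, 14.2 CPM for Plac8, 26.5 CPM for F13a1 and 168 CPM for Fn1. Tumour-free microglia (10 libraries) had a median of 3.999 CPM for Fn1.

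**Figure D1:**
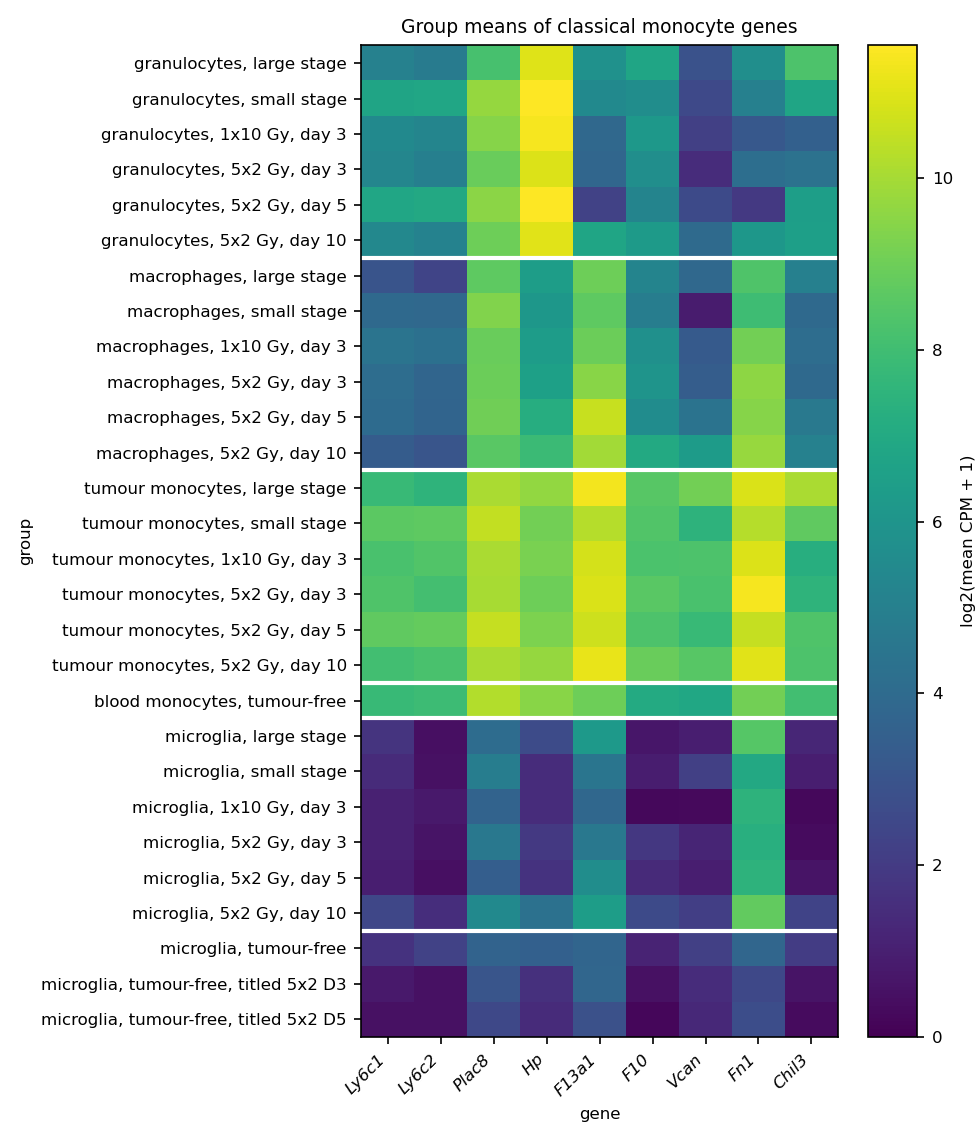
Mean level of each of the 9 genes (columns) in each of the 28 groups (rows), with colour for log2(CPM + 1) from dark for low to bright for high. The granulocyte, BMDM (macrophage), tumour monocyte and blood monocyte rows differ gene by gene, Hp being highest in granulocytes and Vcan in tumour monocytes, while the microglia rows are low in all columns but Fn1, F13a1 and Plac8.

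The highest mean of Ly6c1 (416 CPM), Ly6c2 (446 CPM) and Plac8 (1477 CPM) was in monocytes on day 5 after 5x2 Gy, that of Vcan (536 CPM), F13a1 (2610.3 CPM) and Chil3 (1082 CPM) in large-stage monocytes, that of Fn1 (2708 CPM) in monocytes on day 3 after 5x2 Gy and that of F10 (472 CPM) in monocytes on day 10 after 5x2 Gy. Hp was highest in granulocytes on day 5 after 5x2 Gy (2981 CPM), and the 6 groups with the highest Hp were the 6 of granulocytes. F13a1 (3.83 CPM) and Fn1 (2.75 CPM) were lowest in granulocytes on day 5 after 5x2 Gy and not in microglia. Of the 27 pairs of groups next to each other in this order, 0 were without overlap of their libraries for Ly6c1, Ly6c2, Vcan, Fn1 and Chil3, and 1 for each of Hp, Plac8, F13a1 and F10. Ordering groups by their means makes overlap of neighbours likely, and overlap is no test of a difference. The exact order of neighbours is thus a description.

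BMDM had less of all 9 genes than monocytes of tumours of the same stages. The comparison sets macrophages of the tumour against the monocytes that such cells are known to come from. The test, edgeR's quasi-likelihood test adjusted over all genes (10 BMDM against 9 monocyte libraries, both stages weighted equally), called 9 of 9 lower, where 13.8% of 14939 genes were called and 6.59% of those tested were called lower. The median log2 fold change of the 9 was -3.45 and that of all genes 0.04. For 7 of the 9 every BMDM library lay below every monocyte library, a share that was not computed over all genes. All 9 were called under every alternative run.

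Ly6c1 lay between 2.64 and 29.04 (median 8.58) CPM in BMDM, against 93.7 to 659.5 (median 289) CPM in monocytes. That is a log2 fold change of -4.87 ± 0.41 (SE, adjusted p = 1.01e-06). Ly6c2 lay between 1.95 and 36.6 (median 4.03) CPM in BMDM, against 74.00 to 749 (median 209.9) CPM in monocytes, with a log2 fold change of -5.15 ± 0.54 (adjusted p = 5.89e-06). The groups do not overlap for either gene. The sort gates are not stated, and if Ly6C was among their markers, this difference was set in part by the sort. That limit holds for the Ly6c genes in every comparison between populations. Plac8 fell least, lying between 194 and 1014 (median 543) CPM in BMDM, against 704 to 1894 (median 1238) CPM in monocytes, a log2 fold change of -1.21 ± 0.26 (adjusted p = 0.00312) with overlapping groups.

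The secreted proteins fell by very different amounts. Vcan, versican, a large proteoglycan that binds hyaluronan, lay between 0.228 and 32.1 (median 1.86) CPM in BMDM, against 117 to 866 (median 280.1) CPM in monocytes. Its log2 fold change of -6.43 ± 0.56 (adjusted p = 1.34e-06) was the lowest of the 9. F10, the clotting protease precursor that activates prothrombin once cleaved, lay between 7.93 and 68.2 (median 28.1) CPM in BMDM, against 254 to 475 (median 347) CPM in monocytes, a log2 fold change of -3.45 ± 0.32 (adjusted p = 2.57e-06). Hp lay between 26.4 and 128 (median 78.7) CPM in BMDM, against 416 to 1051 (median 633) CPM in monocytes, with -3.09 ± 0.26 on the log2 scale (adjusted p = 9.52e-07). Neither F10 nor Hp overlapped between the groups. F13a1 averaged 459.8 ± 307 CPM in BMDM, against 1986 ± 941 CPM in monocytes, with overlap and a log2 fold change of -1.94 ± 0.34 (adjusted p = 0.000649). Fn1 averaged 290.1 ± 209 CPM in BMDM, against 1591 ± 886 CPM in monocytes, with no overlap and -2.39 ± 0.50 (adjusted p = 0.00318). Chil3, a chitinase-like lectin of mouse myeloid cells, lay between 0.0791 and 131 (median 7.94) CPM in BMDM, against 136 to 2955 (median 484) CPM in monocytes, with -4.98 ± 1.01 (adjusted p = 0.00232), and its SE was the largest of the 9.

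The other genes of these pathways, from lists drawn up with earlier results of these data known, did not all follow. Of 15 other genes of classical monocytes, 11 fell and 0 rose in BMDM against monocytes (median -1.59), among them Ccl9, a chemokine, at -1.75, Mgst1, a detoxifying enzyme, at -2.26 and Cd177, a surface protein of neutrophils and monocytes, at -5.81 on the log2 scale. Of 14 tested genes of coagulation and fibrinolysis, 5 fell and 3 rose. F5, the cofactor of activated factor X, fell by 3.12, F7, which activates factor X with tissue factor, fell by 2.61, and Gas6, a ligand of receptors that clear dying cells, rose by 3.41. Of 10 matrix receptors and partners of fibronectin and versican, 3 fell, with the hyaluronan receptor Cd44 at -2.15. Of 5 tested Ly6 family genes 2 fell, and of 3 haptoglobin partners the scavenger receptor for haemoglobin complexes, Cd163, rose by 2.08 and Lcn2, a granule protein that binds iron carriers, fell by 4.37. Beside these values, 5 microglia genes summed to 852 to 4236 CPM in large-stage and 792 to 2830.1 CPM in small-stage BMDM, against 568 to 1202 and 897 to 1148 CPM in monocytes of these stages. The 5 dendritic cell genes summed to 219 to 1776 and 1264 to 2161 CPM in BMDM, against 23.7 to 170.1 and 62.2 to 153 CPM in monocytes. None of these 10 markers was at 0 in all libraries of a group, and their part in the result was not tested.

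**Figure D2:**
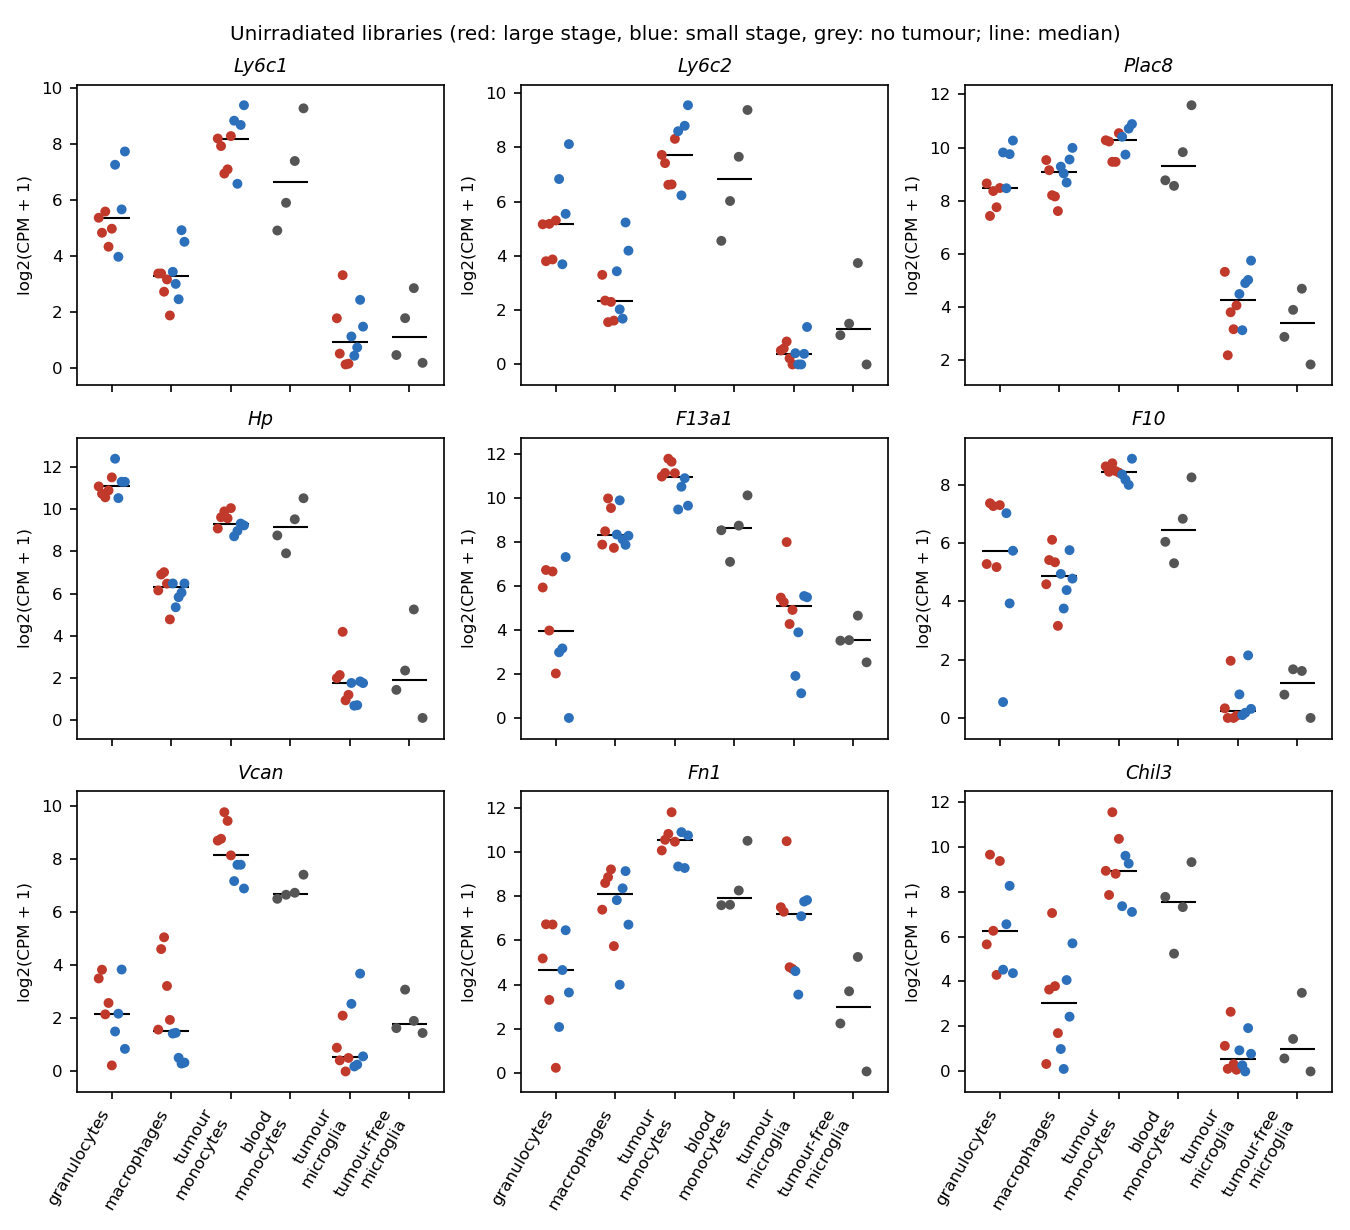
Level of each gene in every library of unirradiated groups, as log2(CPM + 1) on the vertical axis and by population on the horizontal axis, with points for libraries and a line for the median. The median of BMDM lies below that of tumour monocytes in all 9 panels, granulocytes have a higher median for Hp alone, and 1 of the 4 blood monocyte libraries stands above the other 3 in every panel.

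Granulocytes had more Hp and less of the other 8 genes than monocytes of tumours of the same stages, by edgeR's test over 9 libraries of each. At 9 of 9 called, 8 lower and 1 higher, the background was high, with 49.9% of 14270 genes called. Hp lay between 1458 and 5302 (median 2139) CPM in granulocytes, against 416 to 1051 (median 633) CPM in monocytes, a log2 fold change of 2.17 ± 0.25 (adjusted p = 3.53e-07), and every granulocyte library lay above every monocyte library. Vcan, Fn1 and F13a1 had the lowest fold changes. Vcan lay between 0.169 and 13.3 (median 3.51) CPM in granulocytes, against 117 to 866 (median 280.1) CPM in monocytes (-5.55 ± 0.62, adjusted p = 2.7e-07). Fn1 lay between 0.169 and 105 (median 24.2) CPM in granulocytes, against 620.2 to 3585 (median 1506) CPM in monocytes (-5.05 ± 0.74, adjusted p = 9.39e-06). F13a1 lay between 0 and 157 (median 14.6) CPM in granulocytes, against 703 to 3476 (median 1983) CPM in monocytes (-5.02 ± 0.81, adjusted p = 3.07e-05). These 3 and F10 (82.6 ± 66.98 CPM in granulocytes, against 356 ± 67.7 CPM in monocytes, -1.99 ± 0.53, adjusted p = 0.00351) did not overlap between the groups.

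The 2 Ly6c genes, Plac8 and Chil3 fell as well, with groups that overlap. Ly6c1 averaged 65.2 ± 67.7 CPM in granulocytes, against 299.8 ± 183 CPM in monocytes (-2.02 ± 0.45, adjusted p = 0.000797), and Ly6c2 averaged 64.8 ± 85.3 CPM in granulocytes, against 283 ± 219 CPM in monocytes (-2.01 ± 0.50, adjusted p = 0.00216). Plac8 averaged 535 ± 368 CPM in granulocytes, against 1235 ± 422 CPM in monocytes (-1.05 ± 0.26, adjusted p = 0.00225). Chil3 averaged 226 ± 299 CPM in granulocytes, against 787 ± 889.6 CPM in monocytes (-1.67 ± 0.67, adjusted p = 0.042). With the scaling factors of DESeq2's method, 5 of 9 were called, and Ly6c1, Ly6c2, Plac8 (-0.35, adjusted p = 0.559) and Chil3 were not. The share of all genes called with these factors is not given here. It was 49.9% in the main test, so a count of 5 may lie near the background. DESeq2 called 6, where it called 7612 of 14270 genes, with Ly6c1 and Plac8 lost and no adjusted p for Hp. In edgeR's test, Chil3 was lost without the libraries of doubtful quality (-1.53, adjusted p = 0.0909). Of other classical monocyte genes 7 of 15 fell and 3 rose, with Ccr2 at -5.61, and Lcn2 rose by 6.82. The ratio of Ly6c2 to Ly6c1 counts had a median of 0.819 in 23 granulocyte libraries and 0.782 in 24 BMDM libraries, against 1.03 in 23 tumour monocyte libraries.

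**Figure D3:**
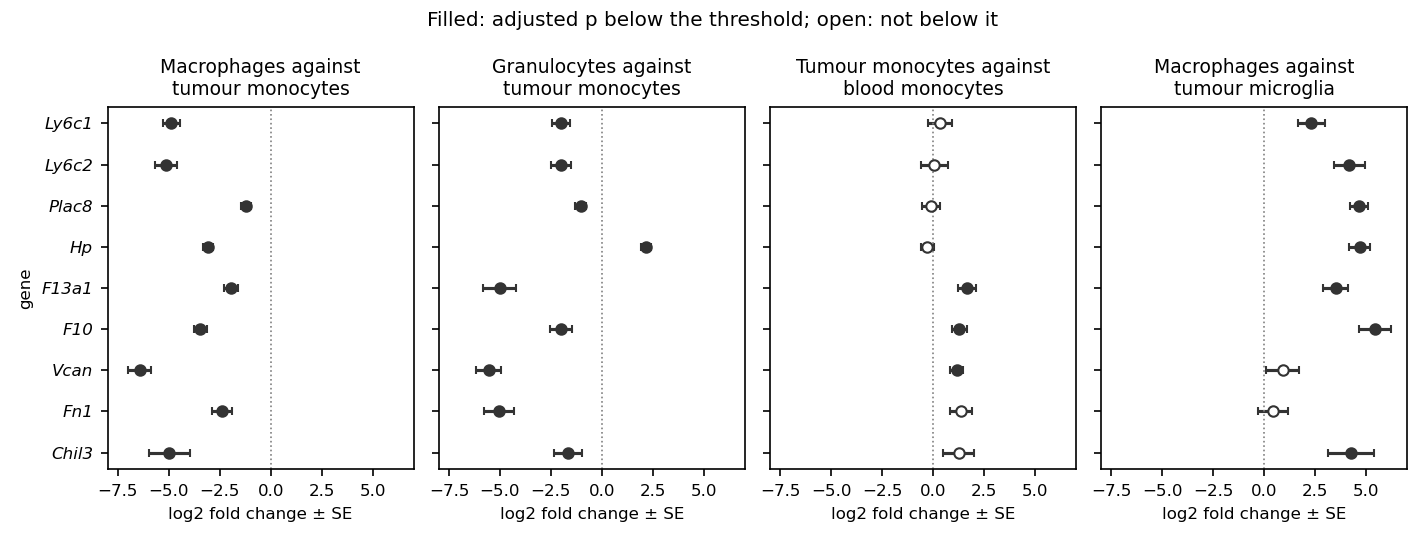
Log2 fold changes with SE (horizontal axis) of the 9 genes (vertical axis) in 4 comparisons between populations, with filled points for an adjusted p under 0.05 and open points otherwise. Changes of BMDM against tumour monocytes run from -6.43 for Vcan to -1.21 for Plac8, and Hp is the gene with a positive change in granulocytes against monocytes.

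Monocytes of the tumour had more F13a1, F10 and Vcan than monocytes of the blood of tumour-free mice, while the Ly6c genes, Plac8, Hp, Fn1 and Chil3 did not pass the test. The comparison addresses how monocytes in the tumour differ from their circulating counterparts. By edgeR's test of 9 tumour against 4 blood libraries, 3 of the 9 rose and 0 fell, where 26.3% of 15714 genes were called, 1660 of them higher and 2467 lower. The median log2 fold change of the 9 was 1.16 and that of all genes -0.16, which DESeq2's scaling factors moved to -0.41, and 0 of the 9 were without overlap. F13a1 averaged 1986 ± 941 CPM in tumour monocytes, against 365, 135, 423 and 1097 CPM in the 4 blood libraries, a log2 fold change of 1.66 ± 0.44 (adjusted p = 0.0132). F10 averaged 356 ± 67.7 CPM in tumour monocytes, against 64.9, 38.6, 113 and 304 CPM in blood (1.29 ± 0.38, adjusted p = 0.0216). Vcan averaged 375 ± 256 CPM in tumour monocytes, against 89.5, 99.6, 105 and 169 CPM in blood (1.16 ± 0.33, adjusted p = 0.0185). The 4th blood library was the highest of the 4 for each of these genes.

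Fn1 averaged 1591 ± 886 CPM in tumour monocytes, against 192, 195, 306 and 1459 CPM in blood, and did not pass in the main test (1.37 ± 0.54, adjusted p = 0.0741), but passed by DESeq2 (1.23, adjusted p = 0.0215). Chil3 averaged 787 ± 889.6 CPM in tumour monocytes, against 216, 36.8, 158 and 633 CPM in blood (1.26 ± 0.75, adjusted p = 0.23). Ly6c1 averaged 299.8 ± 183 CPM in tumour monocytes, against 28.8, 58.2, 165 and 611 CPM in blood (0.33 ± 0.60, adjusted p = 0.72). For Ly6c1 the blood libraries thus spanned a wider range than all 9 of the tumour. Ly6c2 averaged 283 ± 219 CPM in tumour monocytes, against 22.5, 63.98, 200.1 and 663 CPM in blood (0.06 ± 0.65). Plac8 averaged 1235 ± 422 CPM in tumour monocytes, against 435, 376, 908 and 3093 CPM in blood (-0.09 ± 0.43), and Hp 689 ± 210.2 CPM in tumour monocytes, against 428, 238, 728 and 1452 CPM in blood (-0.28 ± 0.33). Replicate 4, the highest blood library for all 9 genes, is also the blood library that is not of doubtful quality. Without the doubtful libraries 0 of the 9 were called by edgeR, where 1.27% of genes were, with log2 fold changes of 0.71 for F13a1, 0.225 for F10 and 0.88 for Vcan. Without blood replicate 1, 2 or 3 only F13a1 was called, and without replicate 4 the count was 7, of which Plac8 had changed sign (0.86, adjusted p = 0.0428). The share of all genes called in these fits without a single library is not given here.

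The 4 blood libraries also held 3 erythroid genes at a summed 994 to 6465 CPM, against 0 to 3.37 CPM in large-stage and 0 to 12.7 CPM in small-stage tumour monocytes. Their 4 genes of T and NK cells summed to 36.05 to 1342 CPM, against 0 to 3.03 and 0.432 to 17.96 CPM in those stages. None of these 7 markers was at 0 in all blood libraries, and their part in the result was not tested. Of 15 other classical monocyte genes 5 rose in tumour against blood monocytes and 0 fell (median 0.70), with the lipopolysaccharide receptor Cd14 at 3.02 and the pattern receptor Clec4e at 2.93. Of 15 genes of coagulation and fibrinolysis 6 rose and 1 fell (median 1.11), with F7 at 2.38, the urokinase receptor Plaur at 1.17, thrombomodulin, Thbd, which turns thrombin to an anticoagulant role, at 1.52 and the tissue transglutaminase Tgm2 at 2.91. Of 10 matrix receptors and partners 4 rose and 1, the integrin subunit Itgb3 of platelets and myeloid cells, fell (-3.55). Of 5 Ly6 family genes 1 fell, Ly6g at -4.45, and of 4 haptoglobin partners 1 rose, the haem-degrading enzyme Hmox1, at 2.71.

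BMDM had more of 7 of the genes than microglia of tumours of the same stages, though the level was low for several. By edgeR's test (10 libraries each), 7 of 9 rose and 0 fell, where 29.9% of 15103 genes were called. Of the 9, 4 did not overlap, a share that was not computed over all genes. Plac8 lay between 194 and 1014 (median 543) CPM in BMDM, against 3.51 to 52.5 (median 18.5) CPM in microglia (4.64 ± 0.42, adjusted p = 1.13e-07). F10 lay between 7.93 and 68.2 (median 28.1) CPM in BMDM, against 0 to 3.43 (median 0.185) CPM in microglia (5.43 ± 0.77, adjusted p = 2.11e-05). Hp averaged 76.7 ± 32.03 CPM in BMDM, against 3.46 ± 4.95 CPM in microglia (4.68 ± 0.50, adjusted p = 7.24e-07), and Ly6c2 averaged 8.99 ± 10.8 CPM in BMDM, against 0.415 ± 0.49 CPM in microglia (4.18 ± 0.75, adjusted p = 0.000271). These 4 were higher in every BMDM library than in every microglia library. F13a1 (3.50 ± 0.63), Chil3 (4.26 ± 1.12) and Ly6c1 (2.30 ± 0.67) also passed, with overlap. Fn1 averaged 290.1 ± 209 CPM in BMDM, against 244 ± 429 CPM in microglia (0.42 ± 0.72, adjusted p = 0.702). Vcan averaged 7.30 ± 11.2 CPM in BMDM, against 2.24 ± 3.74 CPM in microglia (0.90 ± 0.82, adjusted p = 0.443), and passed without the libraries of doubtful quality (2.63, adjusted p = 0.0322). Of 15 other classical monocyte genes 11 rose and 1 fell, with Ccr2 at 5.36 and Ifitm6, an interferon-induced membrane protein, at 5.52.

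With the stage of the tumour, the Ly6c genes and the Vcan and F13a1 genes lay in opposite directions in monocytes, but 0 of the 9 passed after adjustment. For large against small stage (5 against 4 monocyte libraries), edgeR called 0 of 14567 genes, 0% of those tested, while 568 genes and 4 of the 9 had an unadjusted p under 0.05, and DESeq2 called 8 genes and 0 of the 9. Vcan had 412, 432, 866, 690.0 and 280.1 CPM in the 5 large-stage libraries, against 143, 219, 219 and 117 CPM in the 4 small-stage libraries. The groups do not overlap, and the log2 fold change was 1.66 ± 0.56 (unadjusted p = 0.00778, adjusted p = 1). F13a1 had 1983, 2223, 3476, 3162 and 2207 CPM in large-stage libraries, against 703, 1441, 1885 and 793 CPM in small-stage libraries, again without overlap (1.15 ± 0.39, unadjusted p = 0.00823, adjusted p = 1).

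Ly6c2 had 209.9, 170.1, 97.3, 98.3 and 317 CPM in large-stage monocytes, against 385, 74.00, 443 and 749 CPM in small-stage monocytes (-1.17 ± 0.43, unadjusted p = 0.0121, adjusted p = 1). Ly6c1 had 289, 239.7, 121, 134 and 307 CPM in large-stage monocytes, against 449.6, 93.7, 404 and 659.5 CPM in small-stage monocytes (-0.84 ± 0.38, unadjusted p = 0.0362, adjusted p = 1). For both, 3 of the 4 small-stage libraries were above every large-stage library and replicate 2 was the lowest of the 9. Chil3 had 484, 229, 2955, 442 and 1299 CPM in large-stage monocytes, against 162, 770.2, 606 and 136 CPM in small-stage monocytes (1.42 ± 0.73, adjusted p = 1). Replicates 3 and 5 of the large stage were above the rest. Plac8 (-0.40 ± 0.23), Hp (0.64 ± 0.35), F10 (0.19 ± 0.32) and Fn1 (0.64 ± 0.39) did not pass either. With no filter on low counts, where 0.452% of genes were called, Vcan (adjusted p = 0.00455), F13a1 (adjusted p = 0.017) and Ly6c2 (adjusted p = 0.0378) were called. The 5 microglia genes summed to 568 to 1202 CPM in large-stage monocytes, against 897 to 1148 CPM in small-stage monocytes, with none at 0 in all libraries of either group, and the 4 platelet genes to 7.13 to 59.4 CPM in large-stage, against 2.30 to 106 CPM in small-stage monocytes. Their part was not tested.

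In BMDM, too, Vcan was higher at the large stage in every library, at low levels. It had 1.98, 23.4, 32.1, 8.30 and 2.84 CPM in large-stage BMDM, against 1.69, 1.74, 0.427, 0.228 and 0.261 CPM in small-stage BMDM (4.05 ± 1.28, unadjusted p = 0.00424, adjusted p = 0.778). Ly6c2 had 8.85, 4.11, 1.95, 3.94 and 2.06 CPM in large-stage BMDM, against 9.81, 3.08, 2.22, 36.6 and 17.3 CPM in small-stage BMDM (-1.63 ± 0.62, unadjusted p = 0.015, adjusted p = 0.778), and the groups overlap. EdgeR called 0 of 15874 genes, 0% of those tested, while 955 genes and 2 of the 9 had an unadjusted p under 0.05, and DESeq2 called 9 genes and 0 of the 9.

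In granulocytes, Plac8 and the Ly6c genes were lower at the large stage, and whether they passed depended on the scaling. EdgeR called 0 of the 9 and 2 of 14230 genes (0.0141%), both lower, with 1252 genes and 4 of the 9 at an unadjusted p under 0.05. Plac8 had 400.4, 171, 328, 214 and 355 CPM in large-stage granulocytes, against 900.0, 353, 861 and 1229 CPM in small-stage granulocytes (-1.74 ± 0.42, adjusted p = 0.0695). Ly6c2 had 34.9, 12.97, 35.2, 13.6 and 38.5 CPM in large-stage granulocytes, against 113, 11.9, 45.8 and 277 CPM in small-stage granulocytes (-2.31 ± 0.79, adjusted p = 0.214). Ly6c1 (-2.001 ± 0.71, adjusted p = 0.245) and Hp (-0.89 ± 0.39, adjusted p = 0.447) were the other 2 under an unadjusted p of 0.05. Replicate 2 of the small stage, which was lowest for Ly6c1 and Ly6c2, lies inside the large-stage range for Plac8. Replicate 1 of the small stage, with 900.0 CPM of Plac8 and 113 CPM of Ly6c2, is of doubtful quality. It had 7531 genes detected and 1.778% of abundant genes at 0, and its part in the scaling was not tested. DESeq2's scaling factors moved the median of all genes to -0.00462, against 0.20 with TMM, and then edgeR called Plac8 (-2.82), Ly6c1 (-3.23), Ly6c2 (-3.31) and Hp (-2.32), with 11.6% of genes called. DESeq2 itself called Plac8, Ly6c1 and Ly6c2, with 5.37% of genes called. In microglia, edgeR called 0 of the 9 between large and small stage and 0 of 19754 genes, 0% of those tested, with 2453 genes and 1 of the 9, F13a1 (1.75 ± 0.81), at an unadjusted p under 0.05, and DESeq2 called 21 genes and 0 of the 9. Of the lists of other monocyte, coagulation, matrix, chitinase, Ly6 and haptoglobin partner genes, 0 members were called by edgeR in any of the 4 comparisons of stage.

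Microglia of large-stage tumours had more Fn1 and F13a1 than tumour-free microglia, while Ly6c1, Ly6c2, F10, Vcan and Chil3 had means under 4 CPM in both. EdgeR called 2 of the 9 higher and 0 lower (5 against 4 libraries), where 31.9% of 19754 genes were called. Fn1 had 180.4, 156, 1442, 26.5 and 25.1 CPM in large-stage microglia, against 3.70, 11.9, 37.00 and 0.0432 CPM in tumour-free microglia (5.01 ± 1.41, adjusted p = 0.00906). F13a1 had 43.05, 37.2, 252, 18.2 and 28.9 CPM in large-stage microglia, against 10.4, 10.6, 23.98 and 4.75 CPM in tumour-free microglia (2.67 ± 0.95, adjusted p = 0.0316). Replicate 3 of the large stage was far above the rest for both genes, and without it 0 were called (3.12, adjusted p = 0.0538 for Fn1, and 1.43, adjusted p = 0.202 for F13a1). The count was also 0 with the compared groups alone in the fit. At the small stage, edgeR called 0 of the 9 against tumour-free microglia, where 15.4% of genes were called, with 3 of the 9 at an unadjusted p under 0.05. DESeq2 called 3, Fn1, Hp and Ly6c2, where it called 4537 of 19754 genes. Fn1 had 23.3, 10.7, 136, 216 and 226 CPM in small-stage microglia (3.51 ± 1.33, adjusted p = 0.0698), of which replicates 1 and 2 lay within the tumour-free range. Hp averaged 1.74 ± 1.01 CPM in small-stage microglia, against 10.7 ± 17.6 CPM in tumour-free microglia (-2.49 ± 1.02, adjusted p = 0.0962), where replicate 3 alone had 37.0 CPM. The 2 comparisons share the 4 tumour-free libraries, of which replicates 2 and 3 are of doubtful quality.

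Other genes of the same pathways were called in both directions in microglia of tumours, against 31.9% of all genes called at the large and 15.4% at the small stage. Of 14 tested other classical monocyte genes, 6 rose and 1 fell at the large stage and 5 rose and 0 fell at the small stage, with lysozyme, Lyz2, at 3.31 and 2.40 on the log2 scale. Of 11 matrix receptors and partners, 5 rose and 2 fell at the large stage and 5 rose and 0 fell at the small stage, with the innate receptor Tlr2, a receptor of versican, at 2.81 at the small stage. Of 13 coagulation genes, 3 rose and 2 fell at the large stage and 2 rose and 1 fell at the small stage, with Plaur at 3.49 and 3.06. Of 4 Ly6 family genes, 3 rose at either stage, with Ly6i at 5.19 and 5.01. Hmox1 rose by 4.19 at the large and 3.41 at the small stage, the only one of 4 haptoglobin partners to rise, and Lcn2 fell at the small stage (log2 fold change -4.61). Of 4 chitinase family genes, Chil1, a secreted chitinase-like protein, fell at the large stage (log2 fold change -3.21) and 0 were called at the small stage.

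After radiotherapy, edgeR's test called no change of the 9 genes in monocytes, BMDM or granulocytes, while DESeq2 called Chil3, F13a1 and Fn1 in granulocytes. The 12 comparisons set each irradiated group of monocytes, BMDM and granulocytes against the mean of the unirradiated stages of its population (9, 10 and 9 libraries), and the 4 comparisons within a population share those libraries. EdgeR called 0 of the 9 in all 12, and the share of all genes called was 0% in 11 of them and 0.0063% for BMDM on day 3 after 1x10 Gy. In monocytes, genes with an unadjusted p under 0.05 numbered 600 on day 3 after 5x2 Gy, 1114 on day 3 after 1x10 Gy, 1475 on day 5 and 698 on day 10, with 2, 1, 0 and 0 of the 9 among them. DESeq2 called 0 of the 9 at each, and 5, 99, 188 and 34 of 14567 genes in that order. In BMDM, genes under that p numbered 930, 1483, 1125 and 999 in the same order, with 1, 2, 2 and 4 of the 9. There DESeq2 called 0 of the 9, and 25, 64, 53 and 6 of 15874 genes. In granulocytes, genes under that p numbered 412, 857, 991 and 472, with 1, 1, 2 and 0 of the 9. There DESeq2 called 0, 1, 2 and 0 of the 9, and 2, 128, 180 and 23 of 14230 genes. Of the other lists, edgeR called 0 members.

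Chil3 had the lowest unadjusted p of the 9 in monocytes and granulocytes on day 3. In monocytes it had 254, 212, 51.04 and 214 CPM on day 3 after 5x2 Gy and 99.2, 98.9 and 249 CPM on day 3 after 1x10 Gy, against 136 to 2955 (median 484) CPM in 9 unirradiated libraries. The log2 fold changes were -1.91 ± 0.70 (unadjusted p = 0.0122, adjusted p = 1) and -2.24 ± 0.81 (unadjusted p = 0.0109, adjusted p = 0.522), and the groups overlap. On days 5 and 10 they were -1.04 ± 0.66 and -1.12 ± 0.75. In granulocytes Chil3 had 16.6, 14.4, 10.6 and 37.04 CPM on day 3 after 5x2 Gy and 4.35, 18.3 and 8.80 CPM on day 3 after 1x10 Gy, against 18.6 to 797 (median 75.4) CPM in 9 unirradiated libraries. The log2 fold changes were -3.18 ± 1.00 (unadjusted p = 0.00362, adjusted p = 1) and -4.10 ± 1.21 (unadjusted p = 0.00206, adjusted p = 0.772), and after 1x10 Gy all 3 libraries were below every unirradiated library. DESeq2 called this change (-4.36, adjusted p = 0.00367), and edgeR with no filter on low counts called Chil3 in all 4 of these comparisons on day 3. With the filter edgeR called 0 of 14567 genes in monocytes and 0 of 14230 in granulocytes on day 3. The share of all genes called without the filter is not given here, so those calls cannot be set against it.

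Ly6c1 and Ly6c2 did not pass in any irradiated group of monocytes. Ly6c2 averaged 270.2 ± 84.6, 335 ± 59.03, 446 ± 158 and 303 ± 59.2 CPM on day 3 after 5x2 Gy, day 3 after 1x10 Gy, day 5 and day 10, against 283 ± 219 CPM unirradiated. The log2 fold change on day 5 was 0.73 ± 0.37 (unadjusted p = 0.0621, adjusted p = 0.515). Fn1 had 2500.3, 2965, 1956 and 3411 CPM in monocytes on day 3 after 5x2 Gy, against 620.2 to 3585 (median 1506) CPM in unirradiated monocytes (0.83 ± 0.33, unadjusted p = 0.0209, adjusted p = 1). In BMDM, Fn1 averaged 769.5 ± 476, 545 ± 66.3, 689.9 ± 578 and 873 ± 521 CPM in that order, against 290.1 ± 209 CPM unirradiated, with log2 fold changes of 1.36 ± 0.60, 0.86 ± 0.67, 1.183 ± 0.60 and 1.56 ± 0.65, none past the adjusted threshold.

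In BMDM the 4 genes with an unadjusted p under 0.05 on day 10, Vcan, F10, Hp and Fn1, had 1 library far above the other 2. Vcan had 13.2, 226 and 3.24 CPM, against 0.228 to 32.1 (median 1.86) CPM in 10 unirradiated libraries (4.47 ± 1.03, unadjusted p = 0.000236, adjusted p = 0.363). F10 had 28.3, 329 and 30.2 CPM, against 7.93 to 68.2 (median 28.1) CPM unirradiated (1.96 ± 0.63, adjusted p = 0.721). Hp had 51.3, 600.4 and 37.8 CPM, against 26.4 to 128 (median 78.7) CPM unirradiated (1.54 ± 0.59, adjusted p = 0.775). Fn1 had 600.4, 1473 and 545 CPM on day 10, against 14.9 to 594 (median 276) CPM unirradiated (adjusted p = 0.775). Replicate 2 was the high library in each. On day 5, F13a1 had 2658, 1225, 1979.9 and 209 CPM in BMDM, against 209 to 997 (median 313) CPM unirradiated (1.67 ± 0.52, unadjusted p = 0.00401, adjusted p = 0.533). The 4 platelet genes summed to 89.5 to 717 CPM in these day 5 libraries, against 38.7 to 359.7 CPM in large-stage and 51.7 to 340.1 CPM in small-stage BMDM, none of the 4 at 0 in all libraries, and their part was not tested. In granulocytes on day 5, F13a1 had 1.499, 7.74, 5.88 and 0.212 CPM, against 0 to 157 (median 14.6) CPM unirradiated (-3.55 ± 1.25, adjusted p = 0.519), and Fn1 had 0.545, 9.33, 1.03 and 0.106 CPM, against 0.169 to 105 (median 24.2) CPM unirradiated (-3.72 ± 1.24, adjusted p = 0.485). DESeq2 called both (-3.74, adjusted p = 0.024 for F13a1, and -3.86, adjusted p = 0.0141 for Fn1).

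**Figure D4:**
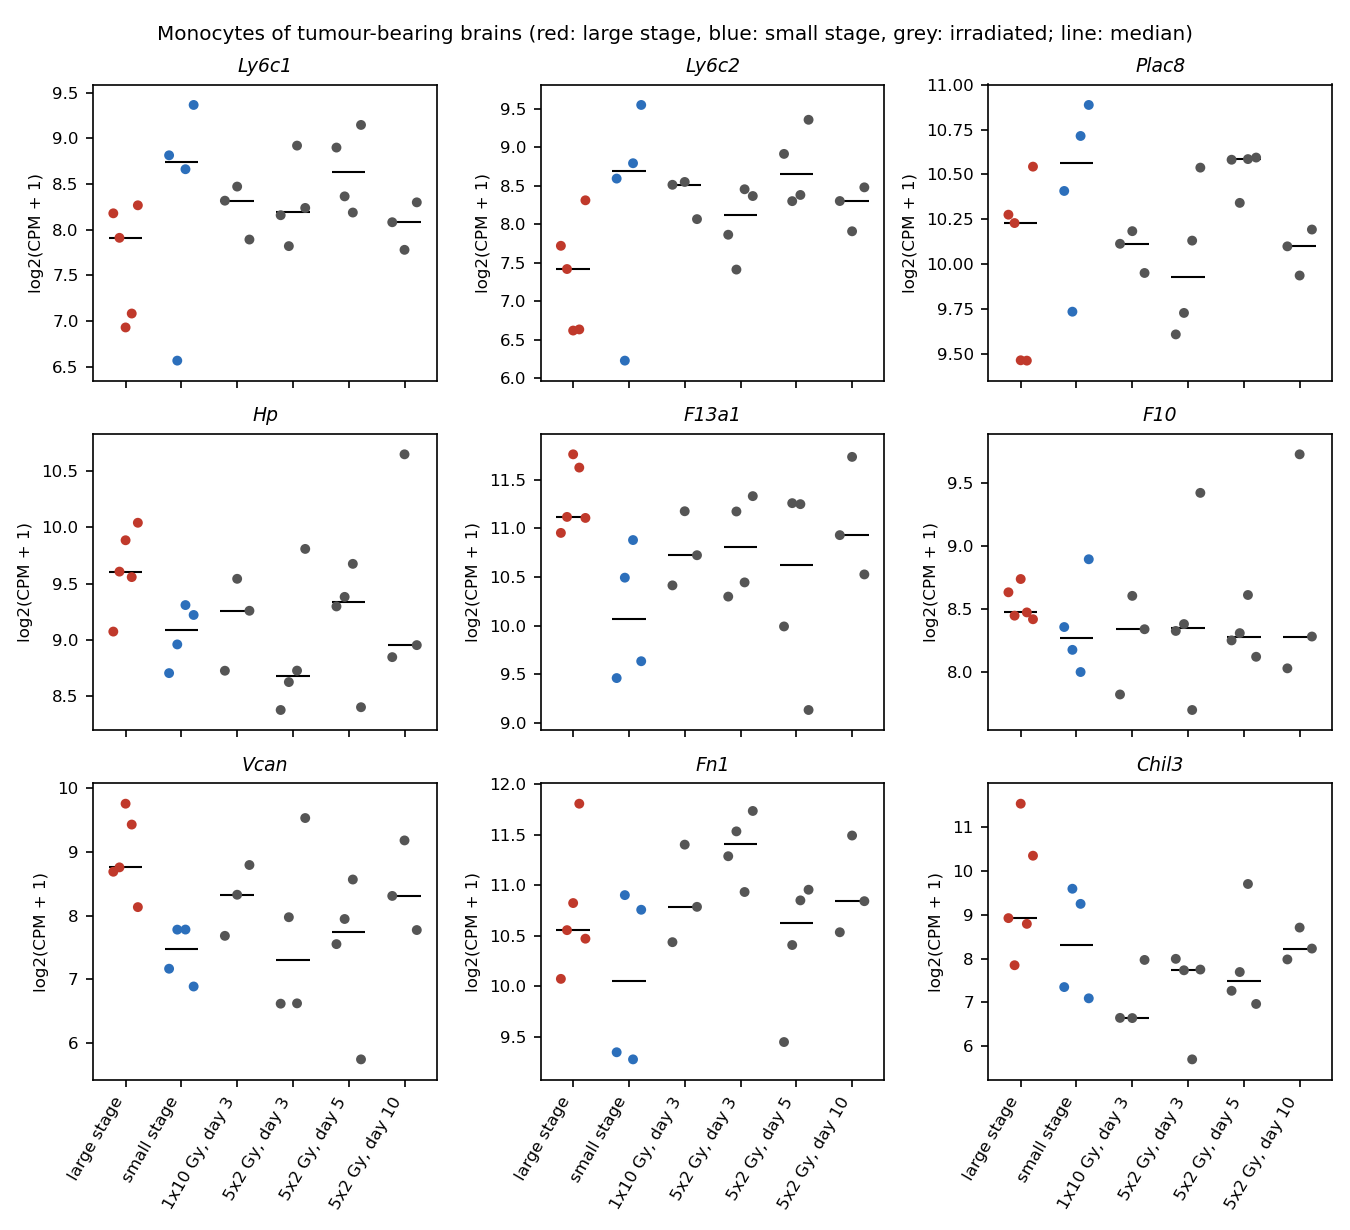
Level of each gene in monocytes of tumour-bearing brains, as log2(CPM + 1) on the vertical axis of each panel, for the large stage, the small stage and the irradiated groups, with points for libraries and a line for the median. Vcan and F13a1 of the large stage lie above all small-stage points, and Chil3 on day 3 lies in the lower part of the unirradiated range.

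Microglia after radiotherapy are given as levels, without a test. Fn1 averaged 153 ± 141 CPM on day 3 after 5x2 Gy, 177 ± 26.8 CPM on day 3 after 1x10 Gy, 174 ± 145 CPM on day 5 and 429 ± 365 CPM on day 10. F13a1 averaged 23.7 ± 23.5, 13.6 ± 10.6, 49.8 ± 53.6 and 83.7 ± 64.03 CPM in the same order. On day 10 the libraries had 39.4, 72.4 and 20.2 CPM of Plac8 and 13.9, 38.99 and 4.16 CPM of Hp, with replicate 2 highest for both.

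Within monocytes of the tumour the 9 genes did not vary as 1 block. Over 23 libraries, as deviations of log2 CPM from the group mean, Ly6c1 and Ly6c2 rose and fell together (Pearson's r = 0.97, Spearman's rho = 0.95, permutation p = 1e-05, the smallest that 100000 permutations can give, adjusted p = 0.00036 over 36 pairs, r = 0.93 without the 2 libraries farthest from the median) (the genes share part of their reads, as the windows above show). Ly6c2 and Plac8 had r = 0.87 (rho = 0.86, permutation p = 2e-05, adjusted p = 0.00036, r = 0.84 without the 2 farthest). Vcan and F13a1 had r = 0.83 (rho = 0.84, permutation p = 3e-05, adjusted p = 0.00036, r = 0.81 without the 2 farthest). Hp and F13a1 had rho = 0.70 and r = 0.69 (permutation p = 0.00042, adjusted p = 0.00378, r = 0.67 without the 2 farthest). Against these, Ly6c1 was inversely related to Vcan (r = -0.54, rho = -0.68, permutation p = 0.00112, adjusted p = 0.00806, r = -0.64 without the 2 farthest), to F13a1 (r = -0.56, rho = -0.60, permutation p = 0.00735, adjusted p = 0.0294, r = -0.61 without the 2 farthest) and to Chil3 (r = -0.63, rho = -0.58, permutation p = 0.00509, adjusted p = 0.0229, r = -0.58 without the 2 farthest). Of 36 pairs 14 had an adjusted p under 0.05 for r, 10 positive and 4 negative.

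In BMDM (24 libraries), 16 of 36 pairs passed and all 16 were positive. Hp and F10 had r = 0.89 (rho = 0.92, permutation p = 2e-05, adjusted p = 0.00036, r = 0.87 without the 2 farthest), and Vcan and F13a1 had r = 0.81 (rho = 0.79, permutation p = 0.00022, adjusted p = 0.00264, r = 0.77 without the 2 farthest). Ly6c1 and Vcan had r = 0.25 (rho = 0.22, permutation p = 0.213, adjusted p = 0.319, r = 0.34 without the 2 farthest), and the difference from monocytes was not tested. Leaving out the library of doubtful quality moved no r by more than 0.1145 in monocytes or 0.0432 in BMDM. Both genes of a pair come from the same library, so its depth, purity and scaling are shared. Described without a test, the summed log level of microglia genes in monocyte libraries had r = -0.68 with Vcan, -0.64 with Hp, -0.60 with F13a1 and 0.37 with Ly6c1, and that of platelet genes had r = 0.57 with F13a1 in monocytes and 0.71 in BMDM. The part of other cells in these relations was not tested.

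**Figure D5:**
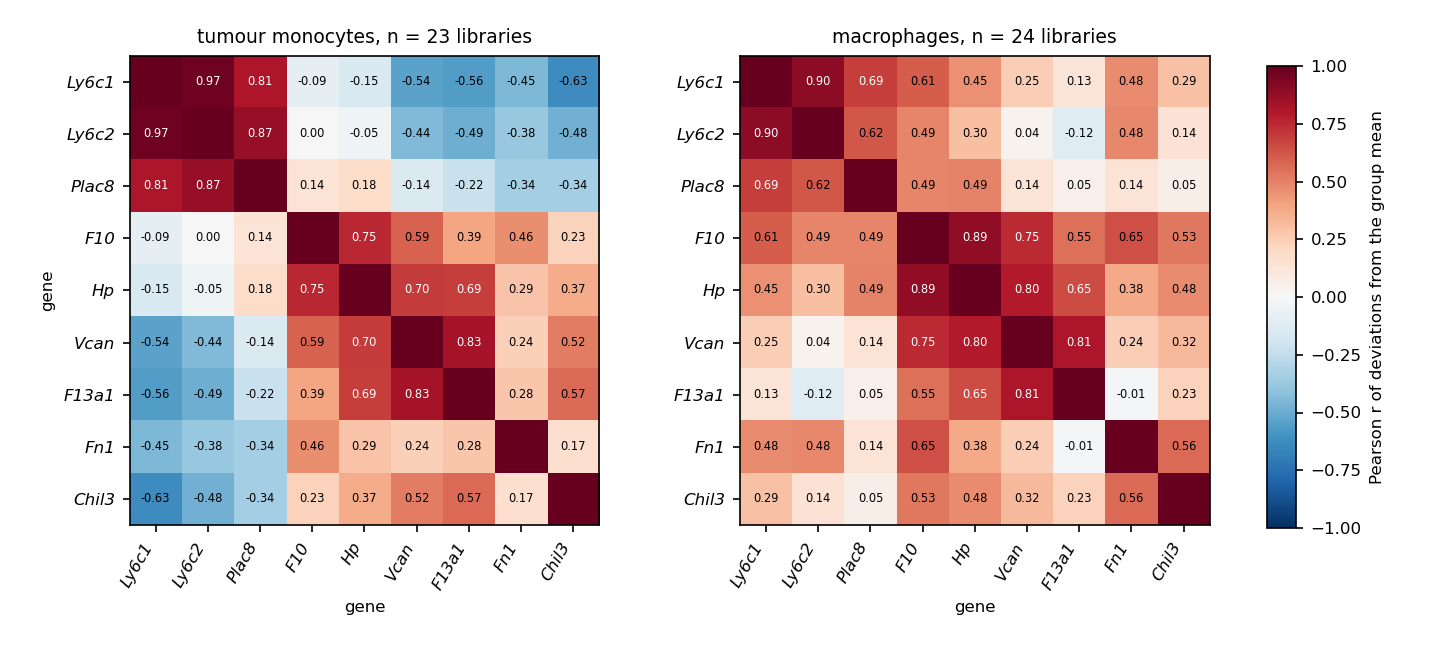
Pearson's r between the 9 genes (both axes) over libraries, as deviations of log2 CPM from the group mean, in 23 tumour monocyte libraries (left) and 24 BMDM libraries (right), with colour and printed value for r. In monocytes Ly6c1, Ly6c2 and Plac8 form 1 corner with negative values against Vcan and F13a1, while all 16 pairs that passed in BMDM were positive. Of those negative values, Plac8 with Vcan (r = -0.14), Plac8 with F13a1 (r = -0.22) and Ly6c2 with F13a1 (r = -0.49) did not pass.

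Over the 28 group means of log2 CPM, the 9 genes differed in which genes outside the 9 they were most like, as a description among 11482 genes. Ly6c1 (r = 0.96) and Ly6c2 (r = 0.95) were most like Raet1e and Cd177, and these and Plec were also the genes most like Chil3 (r = 0.94). F13a1 was most like Mcub (r = 0.98), Ms4a4a (r = 0.98) and Ccr2 (r = 0.98). Fn1 was most like Hpse (r = 0.96), which encodes the heparan sulphate-cutting enzyme heparanase, Ifi204 (r = 0.96) and Ms4a4c (r = 0.96). Among the genes most like Hp were Gda (r = 0.99) and Ltb4r1 (r = 0.99), a leukotriene receptor. Plac8 was most like Ifitm6 (r = 0.98), Gpr141 (r = 0.98) and Napsa (r = 0.98), F10 most like Crybg1 (r = 0.97), Vim (r = 0.96) and B3gnt5 (r = 0.96), and Vcan most like the collagen-binding integrin subunit Itga1 (r = 0.95), Ms4a8a (r = 0.93) and Prtn3 (r = 0.90), a granule protease. Among the 9, the pairs within Ly6c1, Ly6c2, Plac8, F10 and Chil3 had r between 0.90 (Plac8 and Chil3) and 0.99 (Ly6c1 and Ly6c2), with 0.96 for Ly6c1 and Chil3. Fn1 and F13a1 had r = 0.91 with each other, against 0.47 for Fn1 and 0.59 for F13a1 with Ly6c1, and Hp and Fn1 were least alike (r = 0.14).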

How the data were processed

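Total RNA of FACS-sorted cells from brain or blood was sequenced, per the labels' protocols. The build GRCm38 and the tools TopHat2 2.0.14, HTSeq, FastQC and DESeq2 1.18.1 are named by the submitters' processing notes, without the role of each. The deposited table holds whole-number read counts per gene and library, which the authors did not normalize, for 49585 genes and 108 libraries. The strand of counting and the annotation release are not stated.

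Samples were put into 28 groups by cell type, tumour stage, radiotherapy field and title. Levels are CPM with TMM factors over all libraries, given as mean ± SD, and fold changes are given as log2 ± SE. In edgeR 4.0.16 under R 4.3.3, filterByExpr (minimum count 10, minimum total count 15) kept the genes, TMM scaled the libraries and the quasi-likelihood test compared groups with 1 mean each. P-values were adjusted by Benjamini-Hochberg over all genes tested, with a threshold of 0.05 and no adjustment across the 22 comparisons. Overlap of libraries between groups was computed for the genes described here and not for all genes. Comparisons between populations used the unirradiated groups concerned. Those within a population used all its libraries from tumour-bearing brains, with tumour-free microglia added for microglia. Alternatives were RLE scaling, as DESeq2 does it, the Wald test of DESeq2 1.42.0, all genes without a filter, a replicate block, a fit of only the groups compared, either stage alone as unirradiated, and leaving out each library. Leaving out 12 libraries of doubtful quality (fewer than 3000000 counts in all, more than 30000 genes detected, or more than 1% of a population's genes with a median of 100 CPM or more at 0) was chosen after seeing the data. The first comparison of each fit was also run on simulated counts with known changes, and the outcome is not given here.

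All 9 genes are named in every group, with the 3 genes most like each by correlation of group means (mean of 10 CPM or more in a group, no gene models or receptor segments) and up to 4 genes of each related list with the smallest adjusted p, of which 1 gene is not reported here. The genes, lists and comparisons were chosen with earlier results of these data known. Correlations over libraries used 100000 permutations in numpy 2.4.6. Figures were drawn with matplotlib 3.10.9 from tables made in Python 3.11.15 (numpy 2.4.6, pandas 2.3.3).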

Additional observations from a re-analysis of the deposited data

Results flagged for a closer look

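Of 162 combinations of gene and group with 4 or 5 libraries, 34 had 1 library whose gap to its neighbour took up most of the group's range. The limit used gives about 1 of 20 groups by chance if levels are normally distributed. CPM were not transformed, so that rate need not hold here, and 34 cannot be set against it. In each case the library is named with its level, and the lowest and the highest of the other libraries of its group stand beside it.

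Replicate 3 of large-stage microglia stood apart for 7 of the 9 genes, with 8.88 CPM of Ly6c1 (0.085 to 2.40 CPM), 3.29 CPM of Vcan (0 to 0.857 CPM), 17.3 CPM of Hp (0.935 to 3.43 CPM), 1442 CPM of Fn1 (25.1 to 180.4 CPM), 252 CPM of F13a1 (18.2 to 43.05 CPM), 2.89 CPM of F10 (0 to 0.257 CPM) and 5.29 CPM of Chil3 (0.0527 to 1.200 CPM). Replicate 3 of tumour-free microglia, a library of doubtful quality, had 12.3 CPM of Ly6c2 (0 to 1.84 CPM), 37.00 CPM of Hp (0.0864 to 4.13 CPM) and 10.3 CPM of Chil3 (0 to 1.72 CPM). In microglia on day 3 after 5x2 Gy, replicate 4 had 7.13 CPM of Hp (0.949 to 1.90 CPM), 78.6 CPM of Plac8 (5.02 to 5.79 CPM), 58.6 CPM of F13a1 (8.31 to 16.5 CPM) and 9.94 CPM of F10 (0 to 0.346 CPM), and replicate 1 had 0.779 CPM of Chil3 against 0.0851 to 0.146 CPM in the others. In microglia on day 5 after 5x2 Gy, replicate 3 had 129.9 CPM of F13a1 (19.5 to 27.2 CPM) and 5.99 CPM of F10 (0 to 0.205 CPM). In small-stage microglia, replicate 5 had 1.60 CPM of Ly6c2 against 0 to 0.333 CPM in the others, and replicate 4 had 3.43 CPM of F10 against 0.0692 to 0.75 CPM in the others.

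In BMDM on day 3 after 5x2 Gy, replicate 4 had 34.4 CPM of Vcan (1.07 to 1.76 CPM), 1480.2 CPM of Fn1 (474 to 581 CPM) and 150.2 CPM of F10 (24.9 to 37.9 CPM). On day 5, replicate 3 had 28.8 CPM of Ly6c1 against 9.87 to 12.4 CPM in the others. Replicate 3 of large-stage BMDM had 131 CPM of Chil3 against 0.258 to 12.9 CPM in the others, and replicate 2 of small-stage BMDM had 938 CPM of F13a1 against 231 to 319 CPM in the others.

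In granulocytes on day 5 after 5x2 Gy, replicate 4 had 334 CPM of Ly6c1 (35.7 to 40.04 CPM) and 397 CPM of Ly6c2 (27.8 to 43.6 CPM). The levels of replicate 4 are within the range of tumour monocytes for both genes. Replicate 2 of this group had 9.33 CPM of Fn1 against 0.106 to 1.03 CPM in the others, and replicate 3 had 101 CPM of F10 against 10.8 to 18.8 CPM in the others. Replicate 3 of small-stage granulocytes had 157 CPM of F13a1 against 0 to 7.91 CPM in the others.

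In tumour monocytes, replicate 4 on day 3 after 5x2 Gy had 895 CPM of Hp against 332 to 423 CPM in the others, replicate 3 on day 5 had 830.4 CPM of Chil3 against 124 to 206 CPM in the others, and replicate 2 on day 5 was the low library with 1296 CPM of Plac8 against 1532 to 1545 CPM in the others. Replicate 4 of blood monocytes had 1459 CPM of Fn1 against 192 to 306 CPM in the others. The causes were not tested.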

How the results depend on the processing

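Over 22 comparisons, 131 of 152 counts of called genes among the 9 stayed within 1.5 times the count given in the report under alternatives that left out no single library. The other 21 are given here, as the number of the 9 called by the alternative. The number of all genes called moved with the setting too. For the stage of granulocytes DESeq2 called 695 genes, where the main test called 2. The share of all genes is not given beside each count or leave-one-out range below, so a moved count need not be particular to the 9. For tumour against blood monocytes these were 5 with no filter on low counts and 0 without libraries of doubtful quality, against 3. For granulocytes against monocytes it was 5 with RLE scaling, against 9. For large against small stage, monocytes had 3 with no filter, and granulocytes 4 with RLE scaling, 2 with no filter and 3 by DESeq2, against 0. For microglia against tumour-free microglia, the small stage had 1 with no filter and 3 by DESeq2, against 0, and the large stage had 1 with the replicate block, 1 without libraries of doubtful quality and 0 with the compared groups alone, against 2. After radiotherapy the count was 1 with no filter in monocytes on day 3 after 5x2 Gy and after 1x10 Gy, in BMDM on days 5 and 10 and in granulocytes on day 3 after either dose, 2 in granulocytes on day 5 with no filter, and by DESeq2 1 in granulocytes on day 3 after 1x10 Gy and 2 on day 5, against 0. Leaving out each library in turn gave 1 to 7 for tumour against blood monocytes, 9 to 9 for BMDM against monocytes, 8 to 9 for granulocytes against monocytes, 7 to 7 for BMDM against microglia, 0 to 1 for the stage of granulocytes, 0 to 2 for microglia of either stage against tumour-free microglia, and 0 to 0 for the others. Without small-stage granulocyte replicate 2 or 3 the count for stage was 1. Without tumour-free microglia replicate 3 or 4 the count for the small stage was 1 or 2, and without replicate 2 that for the large stage was 1. Plac8 in tumour against blood monocytes ran from -0.3688 without blood monocyte replicate 2 to 0.8609, a reversed sign, without replicate 4. Among single genes, 3793 alternatives kept direction and side of the threshold, 35 lost it, 46 gained it and 1 reversed. Whether the same replicate number marks the same animal is not stated. The numbers were not taken as pairs. Groups that differ in stage, radiotherapy or tumour came from different mice, so the same number cannot mark a pair there. Between populations of tumours, 6 of 9 same-numbered pairs had deviations correlated over 0.1 for BMDM against monocytes (mean r 0.2031). For granulocytes against monocytes 4 of 9 did (mean r 0.1068), and for BMDM against microglia 5 of 10 (mean r 0.05082). Same-numbered libraries of different mice gave like values. Against unirradiated libraries after 5x2 Gy, 4 of 8 did in BMDM (mean r 0.1077) and in granulocytes (0.1114) on day 3, and 5 of 8 in monocytes on day 5 (0.1008). In monocytes 0 of 6 did on day 3 after 1x10 Gy and 1 of 6 on day 10. These correlations thus do not settle a pairing between populations, and the p-values of the main test take none into account. Replicate 2 on day 10 had the highest Hp in all 4 populations. Over all comparisons, a replicate block changed the count by more than 1.5 times only for large-stage against tumour-free microglia, where it left 1. Causes were not tested. Depth limits the genes under 1 CPM in microglia.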

Other observations

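Tumour-free microglia whose titles carry 5x2 while their radiotherapy field says none were on neither side of any comparison. They were part of the fit of all microglia, and so of its filter, scaling and estimate of the spread. Those titled with day 3 had 2.67, 7.07 and 4.30 CPM of Fn1 and 15.3, 8.01 and 15.5 CPM of F13a1, and those titled with day 5 had 0.900, 12.4 and 3.47 CPM of Fn1 and 1.53, 8.38 and 8.61 CPM of F13a1. All 6 libraries had under 4 CPM of Ly6c1, Ly6c2, Vcan, Hp, F10 and Chil3, and 1.51 to 11.1 CPM of Plac8.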
